A study of Mus musculus with 2 samples.

Results

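Plasma cells are the antibody-secreting end stage of the B cell lineage. By a marker rule, 105 cells given this name were found among 31891 kept cells of tumor-bearing mouse liver profiled by scRNA-Seq. Some of the 105 were cycling, as given below. Cells were kept with 500 to 5000 detected genes and at most 10% of their unique molecular identifiers (UMIs, 1 per captured RNA molecule) from mitochondrial genes. A plasma cell had at least 5 UMIs of *Jchain*, the joining chain of polymeric IgM and IgA, and a UMI of at least 3 of *Mzb1*, *Derl3*, *Tnfrsf17*, *Sdc1*, *Prdm1* and *Eaf2*. It had no UMI of *Siglech*, *Cd3e* or *Clec4f*, which mark plasmacytoid dendritic cells, T cells and Kupffer cells. Members were thus chosen by the UMI counts of these 10 genes, whose values are a description of the choice.

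Both libraries came from cholangiocarcinoma (CCA) induced by hydrodynamic tail vein injection (HDTVI) in shYT mice, in which doxycycline switches on shRNAs against *Yap1* and *Wwtr1* (TAZ) in all tissues through rtTA3 under the *CAG* promoter. By the methods of the study, doxycycline started on day 25 after HDTVI and livers were taken on day 33. The PBS library came from vehicle-treated animals and the anti–PD-1 library from animals given clone RMP1-14, which blocks the PD-1 receptor, on days 26, 29 and 32. Each group was 1 library, so the knockdown was shared by both groups, no difference could be tested against replicates, and the intervals given cover counting error only. The study describes several animals per group and mice of both sexes, but the labels of these libraries give neither the animals, their age and sex, nor the shYT line, and no file used here ties a cell to an animal.

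A B cell that becomes a plasma cell switches on PRDM1, IRF4 and XBP1, shuts down much of its B cell program and expands the endoplasmic reticulum (ER), where antibody chains are folded, glycosylated and assembled. The heavy chain constant gene sets the antibody class. IgM comes before switching, IgG classes such as IgG2c in C57BL-type mice follow interferon-driven T cell help, and IgA is the class of mucosal surfaces and is carried into bile.

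The libraries held 19397 and 19451 barcodes with 121713441 and 100807037 UMIs, of which 15531 (80.1%) and 16360 (84.1%) cells were kept. A total of 219 barcode sequences occurred in both libraries. *Xist*, transcribed from the inactive X chromosome of females, was detected in 57 of 80 PBS plasma cells and in 0 of 25 anti–PD-1 plasma cells. Its level was at least 21.7-fold lower in the latter, taking 3 UMIs as the limit for a count of 0 in that library. A Y-linked UMI was present in 9 and 17 cells, of which 7 and 17 had no *Xist* UMI. The PBS library therefore held cells with *Xist* and cells with Y-linked transcripts, whereas no *Xist* was seen in anti–PD-1 plasma cells, so sex composition and treatment cannot be told apart.

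Plasma cells were a smaller share of kept cells in the anti–PD-1 library. The rule found 80 of 15531 kept cells in PBS (0.515%, exact Clopper-Pearson 95% interval 0.409 to 0.641) and 25 of 16360 in anti–PD-1 (0.153%, 0.0989 to 0.225). The difference was −0.36 percentage points (Newcombe 95% interval −0.50 to −0.24). The gap depended in part on the exclusion genes, because cells with the plasma cell markers but a UMI of *Siglech*, *Cd3e* or *Clec4f* numbered 31 in PBS and 45 in anti–PD-1. Of these, 27 and 43 had a *Clec4f* UMI, and 27 and 38 had only 1 or 2 UMIs of the 3 genes in all. Without the exclusion genes the shares were 0.715% (111 cells, 0.588 to 0.860) and 0.428% (70 cells, 0.334 to 0.540), a difference of −0.29 points (−0.46 to −0.12).

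*Clec4f*, a lectin of Kupffer cells, was also found in cells that should lack it, and more often in the anti–PD-1 library. Among T cells with at least 10000 UMIs, a *Clec4f* UMI was present in 27.8% of PBS cells (median 12716 UMIs) and 61.9% of anti–PD-1 cells (median 13520 UMIs). Plasma cells of that depth, taken without the exclusion genes, had one in 30.4% (median 18311 UMIs) and 60.3% (median 18918 UMIs), close to the T cell shares. Neutrophils of that depth had one in 42.1% and 78.9%. By summed level the cell types differed, with *Clec4f* at 74.5 and 44.3 per 1000000 UMIs in these plasma cells and at 467 and 878 in these T cells. In all depths together the plasma cell shares were 24.3% and 61.4%. Main results are therefore given by the rule and also for the 181 cells found without the exclusion genes. In dissociated tissue the share of a cell type depends on how well it is released and survives, which was not tested. A share of kept cells also depends on the other cells in it. Gated neutrophils numbered 1582 in PBS and 3832 in anti–PD-1, and their part in the share was not tested.

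**Figure D1:**
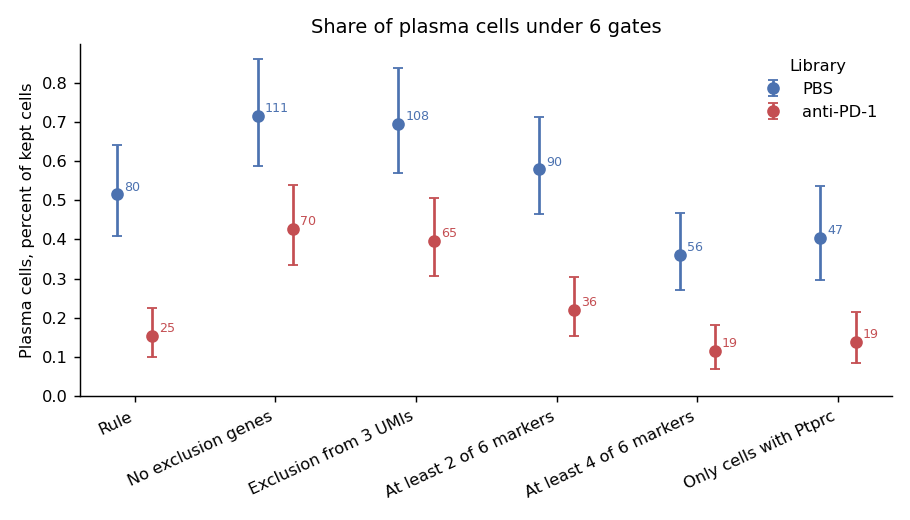
Plasma cells as a percent of kept cells (y axis) under 6 gates (x axis) in the PBS and anti–PD-1 libraries, with the number of cells beside each point and exact 95% Clopper-Pearson intervals as bars. The anti–PD-1 point is the lower one under each gate, and the gap narrows when cells are kept irrespective of *Siglech*, *Cd3e* and *Clec4f*.

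*Jchain* ranged from 8 to 2014 UMIs per cell in PBS (median 284.5) and from 17 to 1333 in anti–PD-1 (median 317). *Derl3*, an ER-associated degradation factor, was detected in 76 of 80 and 22 of 25 cells. *Tnfrsf17* (BCMA), a receptor for plasma cell survival signals, was detected in 33 of 80 and 7 of 25. At the threshold, 24 and 6 cells had exactly 3 of the 6 markers, with a median of 49.2% and 62.3% immunoglobulin UMIs. Cells with 2 of the 6, just outside, numbered 10 and 11, with medians of 51.9% and 11.8%. Between 5 and 9 *Jchain* UMIs there were 1 and 0 cells, and between 1 and 4 there were 0 and 2.

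Antibody mRNA filled these cells. Immunoglobulin genes with *Jchain* took a median of 58.7% of UMIs per PBS cell (quartiles 43.7 and 70.1%, range 9.54 to 77.7%) and 62.7% per anti–PD-1 cell (46.4 and 65.4%, range 0.564 to 75.3%). The quartile ranges overlapped, and without the exclusion genes the medians were 59.9% and 58.7%. The median depth was 13148 and 15348 UMIs, with 2122 and 2299 detected genes. Under 10% immunoglobulin UMIs were 1 PBS and 2 anti–PD-1 cells. Such cells have more weight in levels counted outside immunoglobulin genes. By a simulated-doublet score 0 members were marked as doublets. Only 31.9% (PBS) and 40.3% (anti–PD-1) of simulated pairs were above its threshold, so doublets may remain among the members. Since immunoglobulin mRNA would set every other level, gene levels below are counts per 1000000 UMIs (CPM), counted outside immunoglobulin genes and *Jchain*, and log2 ratios were taken after adding 5 CPM.

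Markers outside the gate mostly matched the name plasma cell. Of 15 identity genes, 10 were past 2-fold higher than in B cells of the same library in PBS and 10 in anti–PD-1, where 8.19% and 11.0% of all genes were. In each library 1 was past 2-fold lower, beside 17.2% and 25.6% of all genes. Over plasmacytoid dendritic cells, the median log2 ratio was 2.07 in PBS and 1.87 in anti–PD-1. The genes summed to 16960 against 5967 CPM there in PBS and to 13260 against 9851 CPM in anti–PD-1. *Xbp1*, the transcription factor that drives ER expansion, was detected in 79 of 80 PBS cells (range 0 to 58 UMIs, median 12) and in 25 of 25 anti–PD-1 cells (range 1 to 42, median 18). Its pooled level was 2289 and 2152 CPM, a log2 ratio of −0.09 (−0.25 to 0.07). *Irf4* was at 331 and 257 CPM (log2 ratio −0.36, −0.84 to 0.09). Of 19 B cell program genes, 17 and 16 were past 2-fold lower than in B cells, beside 17.2% and 25.6% of all genes. *Cd79a*, part of the B cell receptor complex, stayed at 1156 and 805 CPM and was detected in 73 of 80 and 24 of 25 cells.

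Plasma cells of the libraries differed in antibody class. Each cell was assigned to the heavy chain constant gene holding at least 60% of its heavy constant UMIs, and all 105 cells could be assigned, with that gene at a median of 97.7% in PBS and 95.6% in anti–PD-1. These genes lie side by side on the minus strand of chromosome 12 (GRCm38), from *Igha* at chr12:113254830-113260236 through *Ighg2c* at chr12:113285325-113288932 to *Ighm* at chr12:113418558-113422730. *Ighm* led in 39 of 80 PBS cells (48.8%) and 3 of 25 anti–PD-1 cells (12%), a difference of −36.75 points (−50.06 to −15.88). *Ighg2c* led in 8 (10%) and 10 (40.0%), a difference of 30 points (11.35 to 49.86). *Ighg2b* led in 7 and 5 cells, *Ighg1* in 3 and 0 (difference interval −10.45 to 9.80 points), and *Ighg3* in 1 and 0. All IgG genes together led in 19 (23.8%) and 15 (60%) cells, a difference of 36.25 points (14.37 to 54.67). *Igha* led in 22 (27.5%) and 7 (28.0%), and the interval of that difference ran from −16.86 to 21.88 points.

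For *Ighm* and *Ighg2c*, the cells set aside by the exclusion genes differed in the same direction, with *Ighm* leading in 11 of 31 and 9 of 45 (difference interval −35.27 to 4.45 points) and *Ighg2c* in 8 and 17 (−9.58 to 30.93). With them added, *Ighm* led in 50 of 111 (45.0%) and 12 of 70 (17.1%) cells and *Ighg2c* in 16 (14.4%) and 27 (38.6%). *Igha* then led in 30 (27.0%) and 13 (18.6%), with an interval of −20.04 to 4.51 points. For *Ighg1* the direction turned, with 0 of 31 and 7 of 45 set-aside cells and 3 of 111 and 7 of 70 in all (difference 7.30 points, 0.22 to 16.70). Some of these 7 anti–PD-1 cells had under 10% immunoglobulin UMIs (1.58, 8.0 and 9.52%). In number, *Ighm* cells were thus fewer in the anti–PD-1 library (39 and 3 by the rule). *Ighg2c* cells numbered 8 and 10 by the rule and 16 and 27 with the set-aside cells. By the rule, the higher *Ighg2c* share therefore came with a similar number of *Ighg2c* cells. Among cells that had Y-linked UMIs but lacked *Xist*, *Ighm* led in 6 of 7 PBS cells and 2 of 17 anti–PD-1 cells.

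Heavy constant UMIs were also found in cells that make no antibody. In neutrophils *Ighg2c* was 12.3% of heavy constant UMIs in PBS and 28.7% in anti–PD-1, and *Ighm* was 50.9% and 37.4%. As levels over all UMIs, neutrophil *Ighg2c* was at 38.1 and 125 CPM while *Ighm* was at 158 and 163 CPM. In T cells *Ighg2c* was 9.45% and 24.6% and *Ighm* 70.5% and 51.7%, with levels of 44.9 and 126 CPM for *Ighg2c* and 335 and 264 CPM for *Ighm*. The level of *Ighg2c* was thus higher in anti–PD-1 in both cell types, and that of *Ighm* was lower in T cells but not in neutrophils. In the plasma cells themselves *Ighg2c* was 10.9% and 42.4% and *Ighm* 43.2% and 22.8%. The part of free antibody RNA in the class assignment was not tested. Requiring 80% of heavy constant UMIs in place of 60% left the *Ighm* and *Ighg2c* numbers as given. It could not change them, because the leading gene held at least 95.7% of these UMIs per PBS cell and 85.7% per anti–PD-1 cell. The light chain was lambda in 9 of 80 PBS cells (11.2%) and 2 of 25 anti–PD-1 cells (8.0%), with a difference interval of −13.75 to 14.5 points.

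**Figure D2:**
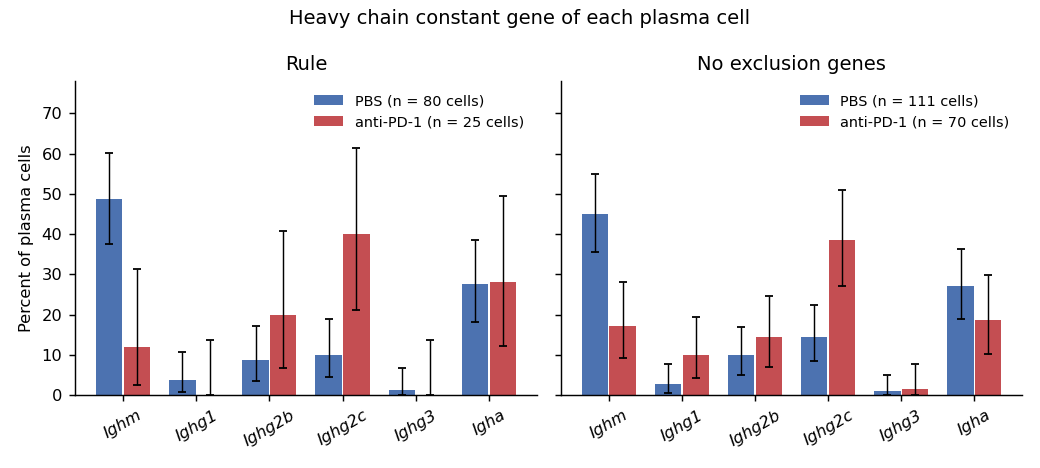
Percent of plasma cells (y axis) led by each heavy chain constant gene (x axis) in the PBS and anti–PD-1 libraries, by the rule (left) and without the exclusion genes (right), with exact 95% Clopper-Pearson intervals. *Ighm* is the tallest PBS bar (48.8%) and *Ighg2c* the tallest anti–PD-1 bar (40.0%) in the rule panel, and both keep that place in the other panel.

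**Figure D3:**
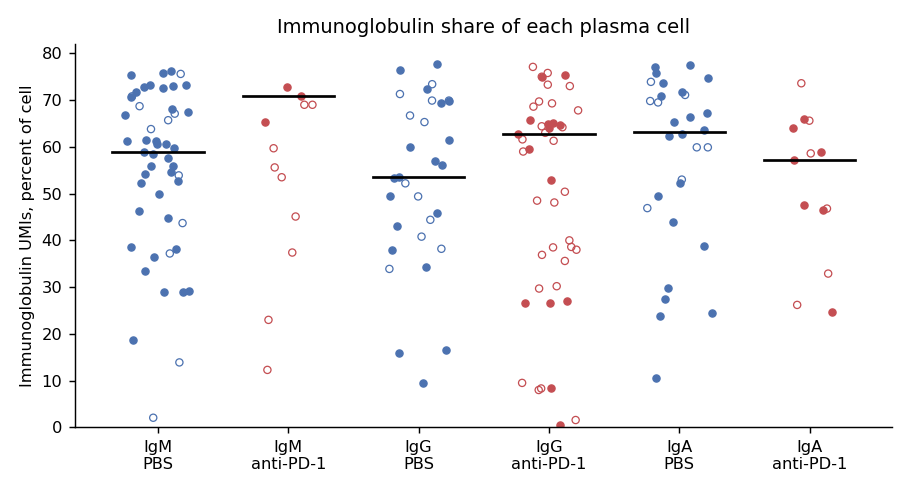
Immunoglobulin UMIs as a percent of each cell's UMIs (y axis) by antibody class and library (x axis). Filled points are cells of the rule, hollow points are cells set aside by *Siglech*, *Cd3e* or *Clec4f*, and the line is the median of the filled points, from 53.5% (IgG, PBS) to 70.9% (IgM, anti–PD-1, 3 cells).

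V genes encode the antigen-binding ends of the chains, and daughter cells of 1 B cell carry the same pair. A heavy V gene could be assigned in 76 PBS cells, to 37 genes, and in 20 anti–PD-1 cells, to 16 genes. The commonest were *Ighv1-22* in 6 PBS cells and, for the light chain, *Igkv6-15* in 10. Of 71 PBS cells with both V genes assigned, 20 (28.2%) shared the heavy V, the light V and the constant gene with another cell. The largest such sets were 3 cells with *Ighv1-22*, *Igkv6-15* and *Igha*, and 3 with *Ighv6-3*, *Igkv5-43* and *Ighm*. In anti–PD-1, 0 of 16 cells did, but this share depends on how many cells are compared. Without the exclusion genes the shares were 36 of 98 (36.7%) and 16 of 52 (30.8%), a difference of −5.97 points (−20.64 to 10.19). The *Ighv1-22*, *Igkv6-15* and *Igha* set then had 6 cells. Of 53 and 16 heavy and light V pairs by the rule, 1 pair, *Ighv1-54* with *Igkv6-15*, occurred in both libraries, which is 1.89% of PBS and 6.25% of anti–PD-1 pairs. With the set-aside cells, 4 pairs of 68 and 42 did (5.88% and 9.52%). V genes form near-identical families, so these assignments are uncertain, and a shared V gene is not a shared clone. In anti–PD-1 the lambda gene *Iglv1* was the light V gene of 3 cells by the rule and 11 without the exclusion genes. Only 2 and 7 cells there were called lambda by the constant genes, so some light V assignments did not match the light chain.

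The ER machinery was high in both libraries. Of 20 ER folding genes, 18 were past 2-fold higher than in B cells in PBS and 18 in anti–PD-1, beside 8.19% and 11.0% of all genes, with median log2 ratios of 2.43 and 2.25. Of 20 ER translocation genes, which feed new chains into the ER, 17 were in each library (medians 2.48 and 2.28). Medians were 1.91 and 1.89 for oligosaccharyl transferase and N-glycan genes, 1.77 and 1.77 for ER to Golgi transport, and 1.62 and 1.64 for ER-associated degradation and unfolded protein response genes. *Hspa5* (BiP), the chaperone that holds unassembled heavy chains, was at 4088 and 3842 CPM in plasma cells and at 816 and 1025 CPM in B cells. *Creld2*, an ER stress-induced protein, had the largest plasma to B cell log2 ratio of the folding genes, at 4.85 and 4.88. *Canx* (calnexin), the membrane lectin chaperone, had log2 ratios of 0.59 and 0.38.

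Some of the folding gene promoters held a known ER stress motif. The promoter sequences are those of the reference genome, so the motif counts describe the gene lists and not these cells. The ER stress response element, CCAAT then 9 bases of any kind then CCACG, was searched on both strands from 250 bases before to 50 bases after each start in RefSeq promoters (GRCm38.p6). It was present in 8 of 18 folding genes with a promoter entry (44.4%) and in 37 of 27025 genes in all (0.137%). It was present in 0 of 15 ER translocation, 0 of 14 oligosaccharyl transferase, 0 of 16 ER to Golgi and 0 of 12 identity genes, and in 1 of 17 degradation genes, *Syvn1*. The median log2 ratio over B cells was 2.45 and 2.28 for the 8 folding genes with the element and 2.24 and 2.17 for the 10 without it. The 4 sites below are shown because they belong to 3 of the abundant chaperone genes and to *Creld2*, each 5′ to 3′ on the strand that reads CCAAT first, with the 2 boxes in capitals. They lie at chr2:34772005-34772063 (plus strand) for *Hspa5*, chr10:86705513-86705571 (plus) for *Hsp90b1*, chr8:84847055-84847113 (plus) for *Calr* and chr15:88819500-88819558 (minus) for *Creld2*. A match describes the letters and is not evidence of binding.
Hspa5: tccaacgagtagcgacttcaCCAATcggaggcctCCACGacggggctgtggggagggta
Hsp90b1: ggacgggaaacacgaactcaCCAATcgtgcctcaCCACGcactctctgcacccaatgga
Calr: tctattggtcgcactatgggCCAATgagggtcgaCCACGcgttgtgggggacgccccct
Creld2: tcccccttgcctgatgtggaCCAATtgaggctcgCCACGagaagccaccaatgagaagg

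Between the libraries, the median log2 ratio of anti–PD-1 over PBS was −0.20 for ER folding (3 of 20 genes higher, 17 lower), −0.23 for ER translocation, −0.05 for oligosaccharyl transferase and −0.16 for ER to Golgi transport, beside −0.07 over 4964 genes tested. Of all genes tested, 5.38% were past 2-fold higher and 8.62% past 2-fold lower in anti–PD-1, and 0 of these folding, translocation, glycosylation and transport genes were. Without the exclusion genes the folding median was 0.03 (11 higher, 9 lower), beside −0.08 over 7354 genes, so its direction depends on the gate. By the rule it was −0.01 when the cells under 10% immunoglobulin UMIs were left out. *Hspa5* had a log2 ratio of −0.09 (−0.21 to 0.03) by the rule and 0.21 without the exclusion genes. Its direction differed by class, with −0.62 in IgG, 0.65 in IgM (3 anti–PD-1 cells) and 0.27 in IgA cells by the rule and −0.16, 0.38 and 0.73 without the exclusion genes. By the rule, 102 of the 221 anti–PD-1 IgA UMIs were in 1 cell, and without the highest cell of each library IgA cells were at 3519 CPM in PBS and 3126 CPM in anti–PD-1, the other direction. The median of the 17 measured degradation and stress response genes was −0.25 (14 lower), and −0.04 (7 higher, 10 lower) with the exclusion genes not applied. Of these genes, 2 were past 2-fold lower, *Ern1* (28 and 4 UMIs) and *Asns* (31 and 5 UMIs), and 0 of 17 were without the exclusion genes.

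A few further genes differed between antibody classes in both libraries and under both gates, which share cells. Cells of each class were compared with the other plasma cells of the same library, and genes past 2-fold in the same direction 4 times were taken. Of 1619 genes, 2 were higher (0.124%) and 3 lower (0.185%) in IgM cells, likewise 2 (0.124%) and 3 (0.185%) in IgG cells, and 2 (0.124%) and 2 (0.124%) in IgA cells. When the cell with most UMIs of the gene was left out of the higher side, 7 of these 14 differences were past 2-fold in both libraries and under both gates, namely *Txndc5*, *Atp1b1* and *Ly6c2* in IgM cells, *Ly6c2*, *Tnfrsf17* and *Txndc5* in IgG cells and *Atp1b1* in IgA cells. *Tnfrsf17* is a gate gene, so its difference is a description of chosen cells. A gene named for more than 1 class is not a separate result each time, since each class is among the other cells of the rest. *Txndc5*, an ER disulfide isomerase, was detected in 39 of 39 PBS and 3 of 3 anti–PD-1 IgM cells and was at 3338 and 3128 CPM there, against 488 and 582 CPM in IgG cells and 1868 and 2049 CPM in IgA cells. *Rgcc*, a regulator of the cell cycle, was at 338 CPM in PBS IgM cells (21 of 39 cells) and 59.9 CPM in the other PBS cells, with 684 and 235 CPM in anti–PD-1, where 11 of the 14 UMIs were in 1 of 3 IgM cells and the level was 202 CPM without it. *Atp1b1* and *Ly6c2* were lower in IgM cells. By the rule, the 3 anti–PD-1 IgM cells held 1 *Atp1b1* UMI (log2 ratio −2.26, −5.40 to 0.18) and 6 *Ly6c2* UMIs. *Hspa1a*, a heat shock gene, was at 78.6 CPM in PBS IgM cells, and the other PBS cells were at 115 CPM, under 2-fold, without 1 cell that held 16 of their 46 UMIs.

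IgG cells were higher for *Ly6c2*, a surface protein of plasma cells and monocytes, at 13070 CPM against 4375 CPM in PBS and 6647 against 849 CPM in anti–PD-1. They were lower for *Txndc5* and *Tnfrsf17*, while *Rgcc* was under 2-fold lower in anti–PD-1 without the highest other cell (207 against 287 CPM). *Slpi* was higher in IgG cells, but by the rule the PBS difference (8288 against 3657 CPM) rested on 1 cell with 611 of 1053 UMIs, and IgG cells were at 3677 CPM without it. In anti–PD-1 they were at 27220 CPM without the highest cell, against 3251 CPM in the other plasma cells. *Tnfrsf17*, a gate gene and so given as a description, had a UMI in 1 of 19 and 2 of 15 IgG cells, in 19 of 39 and 1 of 3 IgM cells, and in 13 of 22 and 4 of 7 IgA cells. IgA cells were higher for *Atp1b1*, a sodium pump subunit, at 378 and 774 CPM (298 and 469 CPM without the highest cell of each library, against 134 and 59.6 CPM in the other cells), and *Dock2*, a migration factor, at 314 and 334 CPM. For *Dock2*, 19 of 44 PBS UMIs were in 1 cell, and the level without it was 196 CPM against 102 CPM in the other PBS cells, under 2-fold. *Ms4a1* (CD20) was at 14.3 CPM in PBS IgA cells and at 61.1 CPM in the other PBS cells without the highest, but in anti–PD-1 1 IgG cell held 26 of the 31 UMIs outside IgA cells, and without it the levels were 41.8 and 39.2 CPM. *Stmn1* was at 49.9 CPM in PBS IgA cells against 102 CPM without the highest other cell, just under 2-fold after adding 5 CPM, and at 62.7 against 180 CPM in anti–PD-1. *Ccr10*, the chemokine receptor that draws IgA plasma cells to epithelia, had a UMI in 9 of 22 and 7 of 7 IgA cells, in 5 of 19 and 0 of 15 IgG cells, and in 6 of 39 and 1 of 3 IgM cells. With the exclusion genes not applied, the shares were 14 of 30 and 10 of 13 IgA, 6 of 31 and 4 of 45 IgG, and 8 of 50 and 1 of 12 IgM cells. Between the libraries, the *Ccr10* level in IgA cells had a log2 ratio of 1.39 by the rule and −0.15 with those genes not applied.

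**Figure D4:**
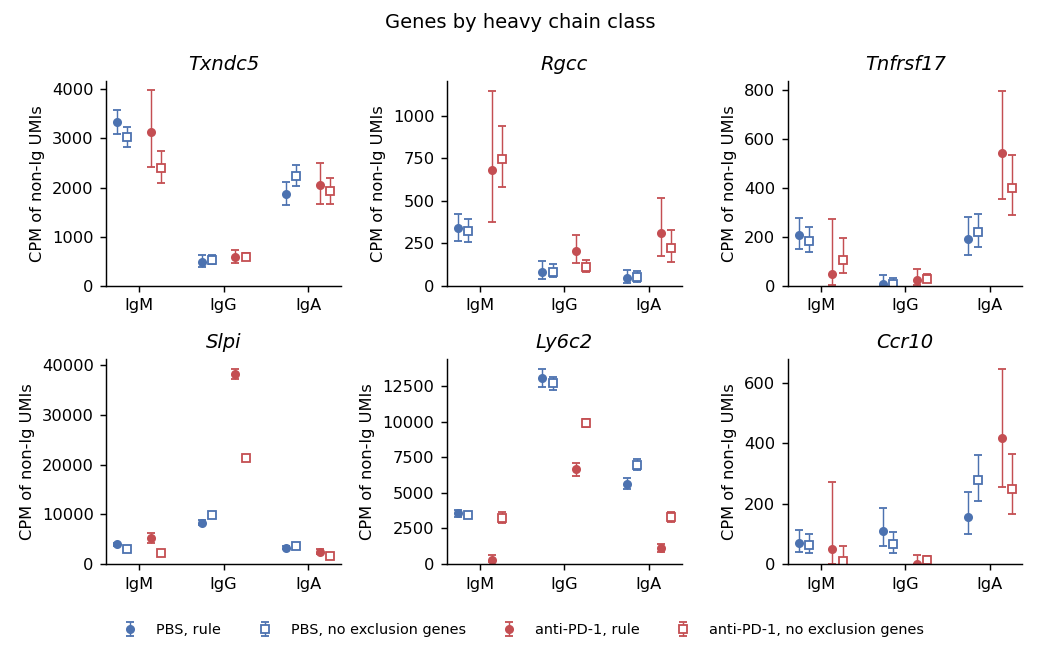
Level of 6 genes in CPM of UMIs outside immunoglobulin genes (y axes) by antibody class (x axes), as filled circles for the rule and open squares without the exclusion genes, with exact 95% Poisson intervals. *Txndc5* is highest in IgM cells in both libraries, *Slpi* and *Ly6c2* are highest in IgG cells, and the *Slpi* IgG point of anti–PD-1 stands at 38220 CPM against 8288 CPM in PBS (27220 and 3677 CPM without the highest cell of each).

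The gene with the most UMIs among the 12 highest ratios was *Slpi*, a secreted inhibitor of neutrophil proteases (chr2:164354070-164389095, minus strand). It ranged from 0 to 611 UMIs per PBS cell (median 5.5, detected in 51 of 80) and from 0 to 1613 per anti–PD-1 cell (median 18, 21 of 25). The ranges overlapped and the highest anti–PD-1 cell held 1613 of 5212 UMIs. Its level was 4874 and 26210 CPM, a log2 ratio of 2.43 (2.36 to 2.50), and 3662 and 18710 CPM without the highest cell of each library. The higher level was found in IgG cells, at 8288 and 38220 CPM (log2 ratio 2.20, 2.11 to 2.30). In IgM and IgA cells no such difference was seen, with log2 ratios of 0.38 and −0.40, but 103 of 105 anti–PD-1 UMIs were in 1 of 3 IgM cells and 102 of 117 in 1 of 7 IgA cells. Without the highest cell of each library, IgM cells were at 3189 and 183 CPM and IgA cells at 2213 and 345 CPM. Without the exclusion genes the ratios were 1.12 in IgG, −0.43 in IgM and −1.11 in IgA cells. B cells had 88.6 and 240 CPM and neutrophils 1102 and 1913 CPM.

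*Cd52*, a small surface glycoprotein of lymphocytes (chr4:134082448-134095082, minus strand), was lower in anti–PD-1 plasma cells. It ranged from 0 to 330 UMIs per PBS cell (median 20, 72 of 80 cells) and from 0 to 44 per anti–PD-1 cell (median 7, 23 of 25 cells). The level was 6637 and 1524 CPM, a log2 ratio of −2.12 (−2.29 to −1.95), and −1.90 without the exclusion genes. It was lower within each class, by −2.32 in IgM, −3.07 in IgG and −1.04 in IgA cells on the log2 scale. In other cells the log2 ratio was −0.24 (B cells), 0.04 (T cells), 0.15 (neutrophils) and −0.02 (plasmacytoid dendritic cells).

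The dissociation stress list, immediate early and heat shock genes that tissue digestion is known to induce, was higher in anti–PD-1. All 19 members were higher and 16 were past 2-fold, beside 5.38% of all genes, with a median log2 ratio of 1.47, or 1.00 without the exclusion genes, where 18 were higher and 10 past 2-fold higher beside 3.22% of all genes (4.81% were past 2-fold lower). *Jund*, an AP-1 subunit, ranged from 0 to 24 UMIs per PBS cell (median 3) and from 3 to 42 per anti–PD-1 cell (median 16). *Fosb* had 15 and 56 UMIs (log2 ratio 2.99, 2.23 to 3.78), *Jun* 198 and 264 (1.69) and *Hspa8* 586 and 525 (1.12). The same list had medians of 0.65 in B cells, 0.77 in T cells and 0.82 in neutrophils, although *Jun* was at −0.30 in B cells. Whether it reflects handling of the tissue or the state of the cells was not tested.

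Most interferon-γ response genes were also higher. By the rule, 15 of 20 measured members were higher and 7 were past 2-fold (5.38% of all genes were), with a median of 0.44. Without the exclusion genes 25 of 27 were higher and 15 past 2-fold (3.22% of all genes were), with a median of 1.16, or 0.59 over the same 20 genes. *Irf1*, an interferon-induced transcription factor, was detected in 22 of 80 and 16 of 25 cells (log2 ratio 1.45, 0.79 to 2.12). *Cd274* (PD-L1), the ligand of PD-1, had 11 UMIs in 11 PBS cells and 31 UMIs in 9 anti–PD-1 cells (2.54, 1.62 to 3.46, and 2.86 without the exclusion genes). *B2m* and *H2-K1*, of MHC class I, were at 11000 and 8830 CPM and at 3414 and 3108 CPM. The type I interferon list had a median of 0.40 (6 of 9 higher) by the rule and 0.99 (12 of 12 higher) without the exclusion genes, or 0.65 over the same 9 genes. It was 1.28 in IgA cells and −0.37 in the other classes by the rule. *Ifi27l2a* was detected in 20 of 80 and 21 of 25 cells, and 53 of its 117 PBS UMIs were in 1 cell. The list medians for interferon-γ were 0.43 in B cells, 0.32 in T cells and 1.31 in neutrophils over the same 20 genes.

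**Figure D5:**
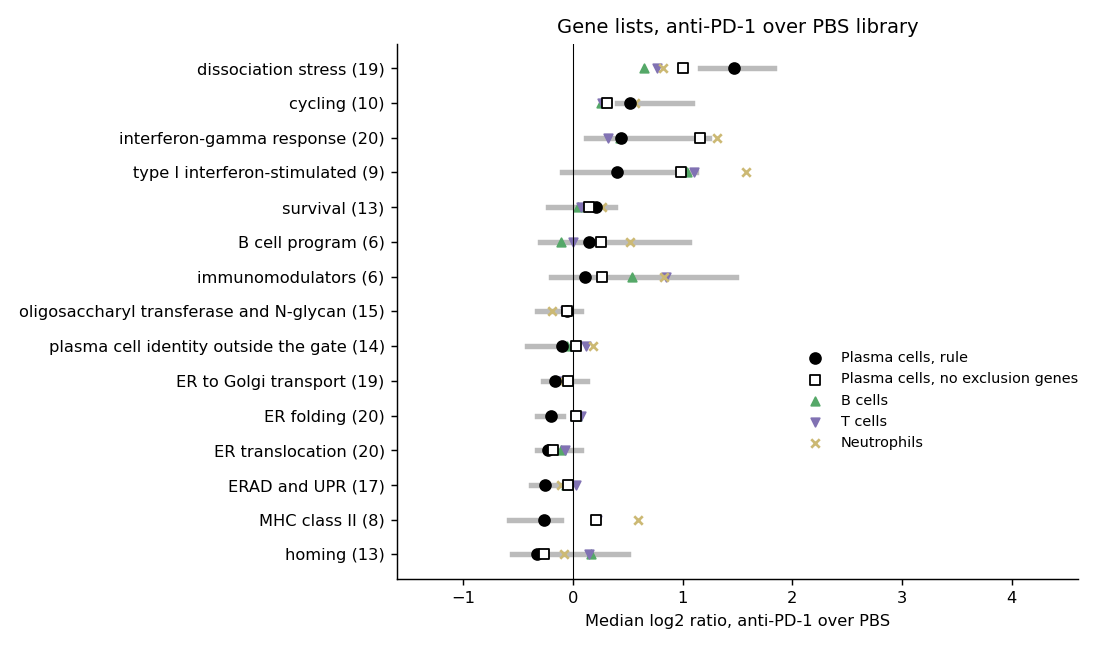
Median log2 ratio of anti–PD-1 over PBS (x axis) for each gene list (y axis, with the number of genes measured by the rule), as a filled circle for the rule and an open square without the exclusion genes, where up to 27 members are measured. Gray bars span the quartiles of the list members by the rule, and triangles and crosses are the same genes in B cells, T cells and neutrophils. Among the plasma cell points, dissociation stress by the rule stands farthest right at 1.47.

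The 12 highest genes by the naming rule were *Fosb*, *Ccl5*, *Hspa1a*, *S100a9*, *Slpi*, *Cd69*, *Rrm2*, *Blvrb*, *Hsph1*, *Ctla4*, *Plek* and *S100a8*, with log2 ratios from 2.99 to 1.80. Irrespective of the exclusion genes, these had ratios from 2.42 (*Ccl5*) to 0.65 (*Blvrb*), with *Hspa1a* at 1.24 in place of 2.55, *Rrm2* at 1.06 in place of 2.23, *S100a9* at 1.73 in place of 2.53, *S100a8* at 1.20 in place of 1.80 and *Slpi* at 1.48. *Cd69*, an early activation antigen that retains lymphocytes in tissue, was detected in 17 of 80 and 18 of 25 cells (2.34, 1.77 to 2.94). Its log2 ratio was 0.33 in B cells, 0.59 in T cells, 1.77 in neutrophils and 2.72 in plasmacytoid dendritic cells. *Fosb* was also higher in B cells (1.73) and T cells (1.83), as was *Plek* (1.13 and 1.42). *Ctla4*, a coinhibitory receptor better known from T cells, had a UMI in 23 of 80 and 15 of 25 plasma cells (113.7 and 432.5 CPM, log2 ratio 1.88). By class the log2 ratio was 3.23 in IgA cells (8 of 22 and 7 of 7 cells with a UMI), 2.16 in IgM cells (11 of 39 and 3 of 3) and 0.64 in IgG cells (4 of 19 and 5 of 15, −0.83 to 2.17). Outside IgA it was 0.52 by the rule. Without the exclusion genes the *Ctla4* ratio was 2.33 in IgA, 2.45 in IgM (11 of 50 and 11 of 12 cells) and 0.92 in IgG cells (0.16 to 1.73). B cells were at 11.2 and 31.0 CPM and T cells at 128 and 480 CPM. For *Blvrb*, 30 of 36 anti–PD-1 UMIs were in 1 cell, and its levels without the highest cells were 31.6 and 34.2 CPM. For *Ccl5*, 37 of 65 were, with 42.0 and 150 CPM without the highest cells, and for *Plek* 24 of 54, with 66.3 and 156 CPM. *S100a8* and *S100a9*, abundant in neutrophils, had log2 ratios of 2.15 and 2.03 in B cells too. The neutrophil marker list summed to 190 and 820 CPM in plasma cells, with 5 of 7 markers detected in each library, and its part in these values was not tested. Other summed lists were 68.2 and 166 CPM for T cells, 60 and 131 for NK cells, 53.8 and 156 for Kupffer cells, 97.2 and 45.3 for hepatocytes, 55.8 and 15.1 for endothelial cells and 10.3 and 95.5 for erythroid cells. The acinar cell list had 0 UMIs in PBS and 9 UMIs in anti–PD-1 (45.3 CPM, 6 of 6 markers detected). The plasmacytoid dendritic cell list summed to 748.5 and 854.9 CPM with 5 of 7 markers detected, *Siglech* being at 0 by the rule. The monocyte and macrophage list, which holds *Ly6c2*, summed to 11870 and 6975 CPM.

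The 12 lowest were *Rgs5*, *Sparc*, *Upp1*, *Igfbp7*, *Col3a1*, *C3*, *Gm26917*, *Krt18*, *Wfdc18*, *Cd52*, *Serpinb6a* and *Cmss1*, with log2 ratios from −4.50 to −2.06, and from −3.12 (*Rgs5*) to −0.93 (*C3*) without the exclusion genes. Several are stromal or epithelial, and some of the 12 had most of their PBS UMIs in 1 cell. For *Rgs5*, a pericyte gene, 99 of 107 PBS UMIs were in 1 cell, for *C3* 48 of 61, for *Col3a1* 34 of 49 and for *Upp1* 32 of 54. The fibroblast marker list summed to 488 and 50.3 CPM, with 177 of 236 PBS UMIs in 1 cell, and the tumor and biliary list to 1629 and 754 CPM. *Cmss1* was at 1906 and 453 CPM and had a log2 ratio of −1.74 in both B and T cells. *Serpinb6a* had −1.47 and −1.49 there. *Sparc*, *Igfbp7* and *Krt18* had a UMI in 21, 20 and 28 of 80 PBS cells. Their log2 ratios were −0.42, −0.21 and −0.68 in B cells and −1.38, −1.22 and −1.10 in T cells.

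Homing receptors had no common direction, with 6 of 13 measured genes higher and a median of −0.33, or 6 of 15 and −0.26 without the exclusion genes. *Itgb1*, the integrin β1 chain, was lower (39 of 80 and 10 of 25 cells, log2 ratio −1.62, −2.43 to −0.87), as was *Cxcr3*, a receptor for interferon-induced chemokines (−1.05, −1.83 to −0.32). *Klf2*, a trafficking regulator, was higher (1.53, 1.05 to 2.00). *Cxcr4*, which holds plasma cells in their niches, was detected in 25 of 80 and 16 of 25 cells (0.88, 0.18 to 1.56). Of the 13 survival genes, 8 were higher with a median of 0.21, and *Pim2*, a survival kinase, was the 1 past 2-fold (1.06, 0.34 to 1.76), beside 5.38% of all genes. Of its 31 anti–PD-1 UMIs 15 were in 1 cell, its levels were 65.0 and 85.4 CPM without the highest cells, and 0 survival genes were past 2-fold without the exclusion genes. *Mcl1*, on which plasma cells depend, had a log2 ratio of 0.21 (−0.13 to 0.54). MHC class II genes had a median of −0.26, with *Cd74* at 8432 and 6799 CPM, and of 0.21 without the exclusion genes. The B cell program list had 6 measured members with a median of 0.15, which was −0.38 in cells with at least 4 markers, −0.35 without cells under 10% immunoglobulin UMIs and −0.12 with each cell counted equally. *Cd83*, an activation marker, had 10 and 28 UMIs (2.51, 1.55 to 3.46), and was at 12.5 and 93.0 CPM without the highest cells. Of 6 measured immunomodulators the median was 0.11, and *Il10* had 26 and 10 UMIs (−0.09, −1.17 to 0.92), with a log2 ratio of 1.48 without the exclusion genes. *Lgals1* was lower (−1.12, −1.49 to −0.77).

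Some cells with the plasma cell markers were cycling. After thinning each cell to 1000 UMIs, UMIs of at least 2 of 10 cycling genes were present in 9 of 80 PBS cells (11.2%) and 6 of 25 anti–PD-1 cells (24.0%), a difference of 12.75 points (−2.52 to 32.87). For the cells found irrespective of the exclusion genes it was 11 of 111 (9.91%) and 10 of 70 (14.3%), a difference of 4.38 points (−5.04 to 15.30). Unthinned, the numbers were 20 and 9. Neutrophils, which do not divide, had 0.96% and 2.18% after thinning, and 2.84% and 8.79% unthinned. B cells had 0.671% and 1.33% after thinning, and 2.53% and 5.13% unthinned. Mature plasma cells have left the cell cycle, and dividing ones are called plasmablasts. The 20 and 9 cycling cells had a median immunoglobulin share of 31.7% and 26.6%, against 61.9% and 64.8% in the others. Their median depth was 13775 and 15348 UMIs, against 12800.5 and 14859 in the others. At similar depth, a cell with less immunoglobulin mRNA has more other UMIs in which cycling genes can be seen. The part of this in the difference was not tested. The levels below are of the same cells. The *Xbp1* level of the cycling cells was 1605 and 1874 CPM against 2667 and 2447 CPM, and their *Ly6c2* level 3465 and 2490 CPM against 8420 and 6958 CPM. *Mki67*, a proliferation antigen, was at 525 and 754 CPM over all members (log2 ratio 0.52, 0.22 to 0.81, and 0.12 without the exclusion genes), and 9 of the 10 cycling genes were higher in anti–PD-1 by the rule and 6 without the exclusion genes.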

How the data were processed

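The deposited matrices hold UMI counts per gene and cell, made by the authors from Singleron GEXSCOPE libraries with the vendor's software and mm10; Seurat 4.3 is named in the submitters' processing notes. Here sums and ratios were computed from these counts with numpy 2.4.6, scipy 1.17.1 and pandas 2.3.3, doublet scores with scikit-learn 1.9.0 and scikit-image 0.26.0. The members and gene lists were chosen with earlier results of these data known. With 1 library per group no test was run. Log2 ratios of summed UMIs used CPM of UMIs outside 393 immunoglobulin genes and *Jchain* plus 5 CPM, with exact conditional binomial intervals, and 2-fold counts as called. Genes with at least 20 UMIs over both libraries were measured. Isotypes needed 10 heavy constant UMIs, V genes 5 UMIs and 60% of their locus. Named genes were the most abundant list members, those whose values a comparison turned on, chosen after their values were seen, and the 12 highest and 12 lowest log2 ratios among genes with at least 50 UMIs and detection in 10% of cells of the higher library, leaving out immunoglobulin, gate, mitochondrial, X and Y genes. B, T, neutrophil and plasmacytoid dendritic cells were gated by markers. A score against simulated doublets marked 410 (2.64%) and 616 (3.77%) kept cells, which stayed in. The ratio code was tested on simulated data. Alternatives changed the gate, scaling, pseudocount, doublets and cells used. Symbols not listed in the matrices were *Fam46c*, *Ero1a*, *Ero1b*, *Vimp* and *Mx1*; for 99.79% of 32589 gene IDs an entry was found in GENCODE vM21, from which coordinates were taken.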

Additional observations from a re-analysis of the deposited data

Results flagged for a closer look

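Cells with the plasma cell markers and a UMI of *Siglech*, *Cd3e* or *Clec4f* lie outside the rule, and their share stood out. They were 31 of 111 marker-positive cells in PBS (27.9%) and 45 of 70 in anti–PD-1 (64.3%). Their immunoglobulin share had a median of 63.8% and 53.5%, against 58.7% and 62.7% in the cells of the rule, with 1 and 4 cells under 10%, and IgG genes led in 12 of 31 and 30 of 45 of them. *Clec4f* was present in 27.8% and 61.9% of T cells with at least 10000 UMIs, and whether free RNA put it into the plasma cells was not tested.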

How the results depend on the processing

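No paired analysis was possible because each group is 1 library. Of 513 alternative values, 416 stayed within the interval or quartiles of the main value or were otherwise called the same. Among values called the same were −0.71 and −1.18 points for the median immunoglobulin share, beside a main value of 4.04. A total of 97 moved or reversed. The opposite sign was found in 40 of the 513, counting small values near 0. Some alternatives, such as at least 3 *Jchain* UMIs or leaving out marked doublets, left the 80 and 25 members as they were. For single genes, 258 of 264 values kept their direction. These were the 12 highest and 12 lowest genes, chosen by their ratios in these cells, so their direction was likely to be kept. Thinning all cells to 1000 UMIs before the gate left 11 and 4 plasma cells and gave −0.05 points for the share of kept cells, −54.55 for IgM and −9.67 for the immunoglobulin share. In cells that had Y-linked UMIs but lacked *Xist*, the IgM difference was −73.95 points, ER folding −0.61, homing 0.59 and *C3* 2.38. Without the exclusion genes the shared V gene difference was −5.97 points, and medians were 0.03 for ER folding and for identity genes, 0.21 for MHC class II and 1.00 for dissociation stress. In IgA cells alone the values were 0.19 for ER folding, 0.14 for identity, 0.15 for degradation, 0.82 for dissociation stress, −0.40 for *Slpi* and −1.26 for *Blvrb*. In the other classes ER folding was −0.40 and homing −0.99. CPM over all UMIs gave −0.06 for ER folding and 0.03 for identity, while the median of all genes went from −0.07 to 0.06, and to −0.16 with median-ratio scaling. At least 4 markers gave −0.07 for ER folding and −0.17 for *Blvrb*. Leaving out cells under 10% immunoglobulin UMIs gave −0.01 for ER folding, 0.11 for identity and −0.08 for *Blvrb*. The causes were not tested. Results for gene ratios, lists, V genes, light chains and cycling without the exclusion genes, exclusion from 3 UMIs, IgM by Y-linked UMIs, shared V sets counted once, the 10% immunoglobulin limit and values without the highest cell were chosen after seeing the data. Leaving out a replicate was not possible. Depth limits genes with few UMIs, and the anti–PD-1 values are also limited by the number of cells, 25.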
